A study of Homo sapiens with 24 samples.

Results

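The IFIT genes encode interferon-induced proteins with tetratricopeptide repeats, and 4 of them had a named probe in the data: IFIT1, IFIT2, IFIT3 and IFIT5. Their members were all probes whose only gene symbol in the array annotation was one of these names, which gave 4 of 18852 named genes and 7 of 48803 probes (28098 of which carried a single symbol): 2 for IFIT1, 1 for IFIT2, 3 for IFIT3 and 1 for IFIT5. RNA was profiled on 24 Illumina arrays, 6 per group, and the labels call the 6 cultures of a group biological replicates. The PNT1a groups were an immortalised line of prostate epithelium that stably carried either HIP1 or an empty vector, both kept in G418 (0.8 mg/ml), a drug that selects for the construct. The LNCaP groups, from a prostate cancer line, carried HIP1 or an empty vector by transient transfection and were taken 4 days afterwards. All groups grew in RPMI with 10% FBS. HIP1 is an endocytic adaptor that binds clathrin. The sources used here do not say whether a stable PNT1a line was a clone or a pool, so in PNT1a the construct and the derivation of the line cannot be told apart.

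IFIT genes are barely transcribed in most resting cells and are among the genes that type I interferon and viral RNA induce most. Interferon binding activates the kinases JAK1 and TYK2 and the factor ISGF3, which includes IRF9 and binds interferon-stimulated response elements close to IFIT start sites, and IRF factors can also act there directly. IFIT1 binds RNA whose cap lacks 2′-O methylation, a mark that distinguishes host mRNA from some viral RNA, IFIT2 and IFIT3 form a complex with it in which IFIT3 stabilises IFIT1, and IFIT5 works alone and binds RNA with a 5′ triphosphate.

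The response element was searched as a GAAA pair with any 2 bases between, which reads TTTC on the opposite strand, and it was looked for on both strands in the 250 bases before the starts of IFIT1, IFIT3 and IFIT5 in RefSeq (GRCh38.p14), while IFIT2 was not searched here. These windows are shown because their letters match the element, and all lie on the + strand of chromosome 10. Capitals mark each match, all of them in the opposite orientation, and IFIT3 has 2 windows. The windows are chr10:89392373-89392622 for IFIT1, chr10:89327747-89327996 and chr10:89332279-89332528 for IFIT3, and chr10:89414318-89414567 for IFIT5.

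IFIT1: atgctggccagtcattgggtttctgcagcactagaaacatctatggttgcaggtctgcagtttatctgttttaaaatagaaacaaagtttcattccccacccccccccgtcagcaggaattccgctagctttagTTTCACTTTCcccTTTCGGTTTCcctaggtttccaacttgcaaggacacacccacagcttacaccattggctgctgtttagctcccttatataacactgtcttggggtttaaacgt
IFIT3, window 1: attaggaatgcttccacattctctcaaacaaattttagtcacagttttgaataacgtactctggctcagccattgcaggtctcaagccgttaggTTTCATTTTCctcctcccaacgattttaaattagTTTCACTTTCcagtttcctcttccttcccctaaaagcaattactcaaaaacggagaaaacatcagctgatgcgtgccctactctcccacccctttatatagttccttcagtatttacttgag
IFIT3, window 2: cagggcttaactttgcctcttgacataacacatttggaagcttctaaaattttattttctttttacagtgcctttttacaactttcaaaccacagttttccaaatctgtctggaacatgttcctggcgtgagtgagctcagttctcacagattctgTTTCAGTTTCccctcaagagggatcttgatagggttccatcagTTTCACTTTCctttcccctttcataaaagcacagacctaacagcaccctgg
IFIT5: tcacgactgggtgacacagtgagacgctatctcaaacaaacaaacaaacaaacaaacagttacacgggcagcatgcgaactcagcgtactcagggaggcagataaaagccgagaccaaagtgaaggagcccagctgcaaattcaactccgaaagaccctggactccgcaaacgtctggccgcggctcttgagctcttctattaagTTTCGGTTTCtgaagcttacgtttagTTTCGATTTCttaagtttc

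Each of the 4 windows held 2 matches. The window of IFIT1B, a paralogue that was also searched and is not shown, held 0. In the IFIT1 window they lay 116 to 107 and 103 to 94 bases before the start, and in the IFIT5 window 45 to 36 and 19 to 10 bases before it. Of 35116 windows searched, 3.02% held a match and 0.225% held 2 or more. Among 25 other interferon-stimulated effector genes with a window, 18 held a match in at least one window, against 3.71% of 27305 genes. A match is a description of the letters and was not tested as a site.

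Values are log2 signals as deposited, and a probe counted as above background at 6.97, which is the mode of the table plus 3 SDs of the values under it. Only probes that reached this level on 6 or more of the 12 arrays of a comparison were tested. The single HIP1 probe (ILMN_1701403) did not separate the groups. It averaged 7.79 ± 0.35 on HIP1-labelled and 7.69 ± 0.21 on vector arrays of PNT1a, and 7.29 ± 0.15 on HIP1-labelled and 7.40 ± 0.16 on vector arrays of LNCaP (SD, n = 6 each; two-sided exact permutation p = 0.543 and 0.232). The arrays are therefore called HIP1-labelled below. The PNT1a arrays numbered 6 stood apart: their mean correlations with the arrays of their own group were 0.919 (HIP1-labelled) and 0.942 (vector), and the other PNT1a arrays had 0.973 to 0.982. KLK2, KLK3, TMPRSS2 and FOLH1, markers of luminal prostate, were above background on all LNCaP arrays, whereas KLK2, KLK3 and TMPRSS2 were on none of PNT1a. In PNT1a the epithelial markers CDH1 and KRT19 and the basal markers KRT5 and KRT14 were not well above background on any array. The epithelial marker KRT8 was above it on all PNT1a arrays, KRT18 on 5 HIP1-labelled and 5 vector arrays, and EPCAM on 4 HIP1-labelled and 6 vector arrays. KRT19 was above background on no LNCaP array either. Of the fibroblast markers, PDGFRB and COL1A1 were above background on all PNT1a arrays, and DCN and LUM on none.

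In PNT1a all 6 IFIT probes that could be tested were lower on HIP1-labelled than on vector arrays, in all 4 genes, with the largest falls in IFIT1 and IFIT3. Of 12219 probes tested there, 27.5% were called in either direction, 13.4% lower and 14.2% higher (limma, Benjamini-Hochberg adjusted p under 0.05). The HIP1-labelled and vector arrays did not overlap for 5 of the 6, while 7.45% of all probes tested were lower with no overlap. The IFIT5 probe is in both counts but adds no support to them. It was above background on 1 HIP1-labelled and 6 vector arrays, so it passed the filter through its vector arrays and had to differ. In a bulk culture, fewer cells carrying a transcript and less transcript per cell cannot be told apart.

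IFIT1, the cap sensor, was read most brightly by ILMN_1707695. Its signal was 8.88, 9.18 and 9.43 (lowest, median and highest of 6) on HIP1-labelled arrays and 12.01, 12.65 and 12.83 on vector arrays of PNT1a. All 6 HIP1-labelled arrays lay below all vector arrays by a wide gap, and vector array 6 was the lowest of its group. The difference was -3.42 (SE 0.14, 95% interval -3.73 to -3.10), or 10.7-fold lower on HIP1-labelled arrays, with a limma adjusted p of 2.57e-09. Only 3 of the 12219 probes had a larger fall.

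The other IFIT1 probe, ILMN_1699331, was dim. Its signal was 6.46, 6.63 and 6.75 on HIP1-labelled arrays, and 6.51, 7.29 and 7.43 on vector arrays of PNT1a. No HIP1-labelled array and 5 vector arrays were above background, the exception being vector array 6, so only a bound holds: the HIP1-labelled group was at least 1.14-fold lower. The probe was too dim to be tested with the others, and its exact permutation p was 0.0108 (n = 6 each).

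IFIT2, a member of the complex with IFIT1 and IFIT3, was measured by ILMN_1739428. Its signal was 8.90, 9.05 and 9.52 on HIP1-labelled arrays and 10.66, 11.49 and 11.86 on vector arrays of PNT1a. The groups did not overlap, although both arrays numbered 6 lay toward the other group: HIP1-labelled array 6 was the highest of its group and vector array 6 the lowest. The difference was -2.31 (SE 0.18, 95% interval -2.70 to -1.92), or 4.95-fold lower on HIP1-labelled arrays (limma adjusted p = 8.44e-07).

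IFIT3, which stabilises IFIT1, had 3 probes. By ILMN_1701789 the signal was 8.26, 8.37 and 8.72 on HIP1-labelled arrays and 11.30, 11.71 and 11.97 on vector arrays of PNT1a. Every HIP1-labelled array lay far below every vector array. The difference was -3.25 (SE 0.13, 95% interval -3.52 to -2.98), or 9.51-fold lower, with a limma adjusted p of 1.15e-09.

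By ILMN_2239754 the IFIT3 signal was 6.68, 8.29 and 8.48 on HIP1-labelled arrays and 8.90, 11.50 and 11.60 on vector arrays. In both groups array 6 alone made the low end, and the groups still did not overlap. The difference was -3.03 (SE 0.45, 95% interval -3.99 to -2.07), or at least 7.91-fold lower with array 6, below background, raised to that level (limma adjusted p = 0.000198), and it was -3.19 without both arrays numbered 6. By ILMN_1664543, the dimmest of the 3, the signal was 6.47, 7.03 and 7.19 on HIP1-labelled arrays and 6.94, 8.74 and 9.07 on vector arrays. Here the groups overlapped through vector array 6, the HIP1-labelled signals sat at the background level, and the difference was -1.55 (SE 0.30, 95% interval -2.19 to -0.91, limma adjusted p = 0.00159), or -1.77 without arrays 6.

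IFIT5, the member that works without the others, was measured by ILMN_1696654. Its signal was 6.28, 6.82 and 7.06 on HIP1-labelled arrays and 7.49, 7.88 and 8.13 on vector arrays of PNT1a. The groups did not overlap, but only 1 HIP1-labelled array was above background, so the probe passed the filter through its vector arrays and had to differ. The difference was -1.15 (SE 0.14, 95% interval -1.46 to -0.85), with a limma adjusted p of 3.94e-05. With each array below background raised to that level, only a bound holds, and IFIT5 was at least 1.83-fold lower on HIP1-labelled arrays.

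**Figure D1:**
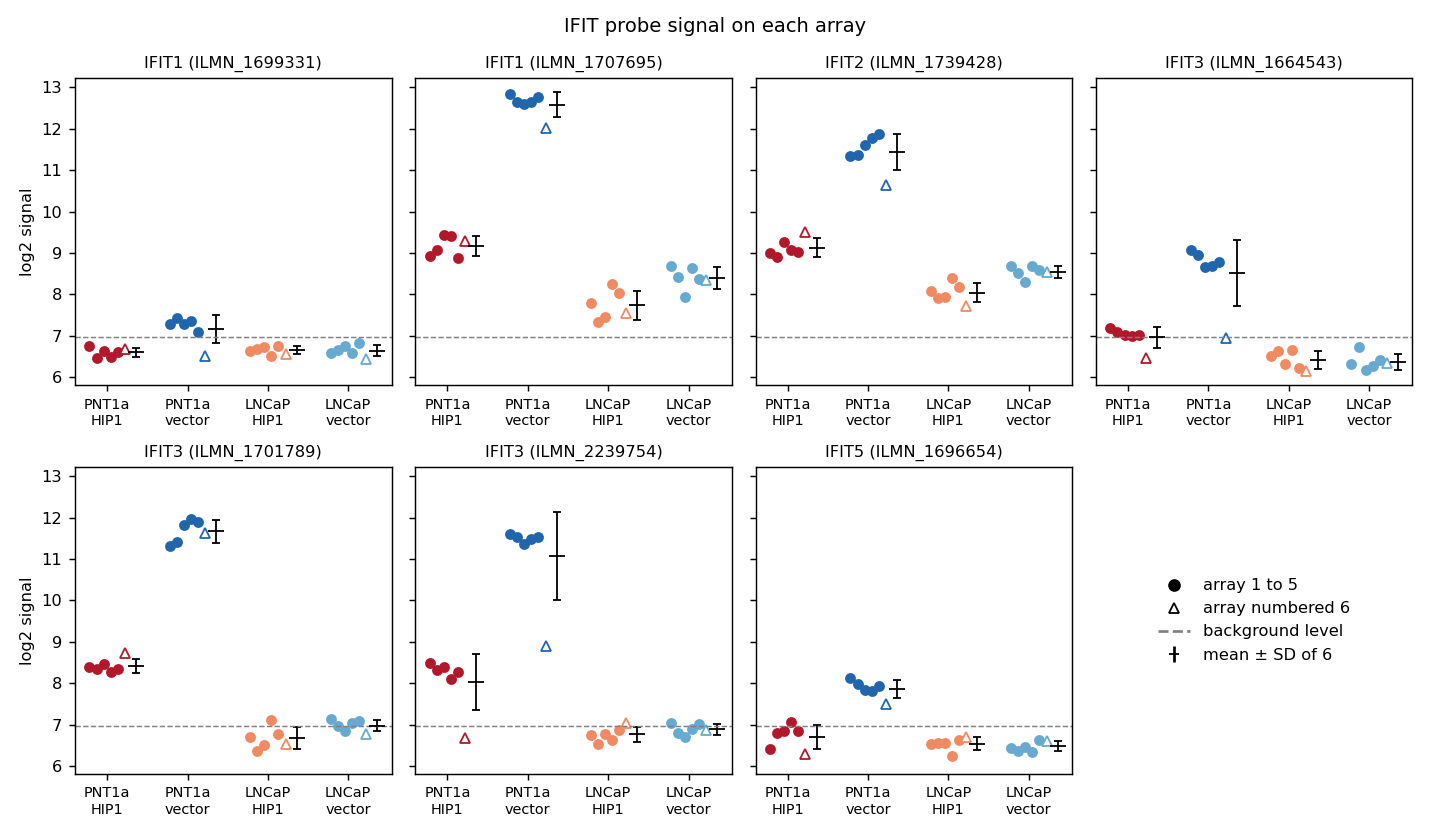
Log2 signal of each of the 7 IFIT probes on each array, in a panel per probe, with the 4 groups on the horizontal axis, mean ± SD of 6 arrays beside them, open triangles for arrays numbered 6 and a dashed line at the background level of 6.97. For IFIT1 (ILMN_1707695) the HIP1-labelled PNT1a arrays lie at 8.88 to 9.43 and the vector arrays at 12.01 to 12.83, and array 6 is the lowest of both PNT1a groups for 2 of the 3 IFIT3 probes.

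For the 5 PNT1a probes whose groups did not overlap, a two-sided exact permutation test of each probe alone gave p = 0.00216, the smallest that 924 splits of 12 arrays allow, and it gave p = 0.0130 for ILMN_1664543 (n = 6 each). The IFIT5 probe is among the 5, and its p is no further support, since it passed the filter through its vector arrays. The PNT1a arrays were cut into 3 sets by hierarchical clustering of their deviations from the group means over the probes tested. The number of sets was chosen by hand, and the grouping was made from the data and given by no label. In the set of 4 arrays (2 HIP1-labelled, 2 vector) the IFIT1 difference by ILMN_1707695 was -3.32, in the set of 6 (3 and 3) it was -3.71, and between the arrays numbered 6 it was -2.72. The last set holds 1 array per group and has no replicate check. For IFIT2 these differences were -2.18, -2.78 and -1.14, and for IFIT3 by ILMN_1701789 they were -2.99, -3.54 and -2.89. IFIT2 was thus lower in all 3 sets, with the smallest gap between arrays 6, and without these arrays the IFIT2 difference was -2.54.

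The sizes of the falls were compared within arrays, by the brightest probe of each gene, over 6 pairs of genes with exact permutation tests adjusted over the 6. The IFIT1 fall exceeded that of IFIT2 (difference of the log2 changes, IFIT1 minus IFIT2, -1.11, 95% interval -1.41 to -0.81, exact adjusted p = 0.00325). IFIT2 minus IFIT3 was 0.94 (95% interval 0.59 to 1.29, exact adjusted p = 0.00325), but this difference did not pass with ILMN_2239754 for IFIT3 (0.72, exact permutation p = 0.152). IFIT1 and IFIT3 did not differ beyond the spread: their difference was -0.17 with an interval of -0.60 to 0.27 (exact adjusted p = 0.418).

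The 3 pairs that hold IFIT5 gave log2 changes minus that of IFIT5 of -2.26 for IFIT1, -2.09 for IFIT3 and -1.15 for IFIT2, but IFIT5 was at or below background on 5 of 6 HIP1-labelled arrays, so its change was limited by the background and no order is drawn from these pairs. The pair results also depended on the probe. Within IFIT3, the change of ILMN_1664543 minus that of ILMN_1701789 was 1.70 (exact permutation p = 0.00433) and minus that of ILMN_2239754 1.48 (exact p = 0.00216), whereas the other two differed by -0.22 (95% interval -1.45 to 1.02, exact p = 0.582). With ILMN_1664543 for IFIT3, IFIT2 minus IFIT3 turned to -0.76, and with ILMN_1699331 for IFIT1 the sign turned in all 3 pairs that hold IFIT1. On HIP1-labelled arrays ILMN_1699331 lay below background and ILMN_1664543 close to it, so the background limits their changes too.

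**Figure D2:**
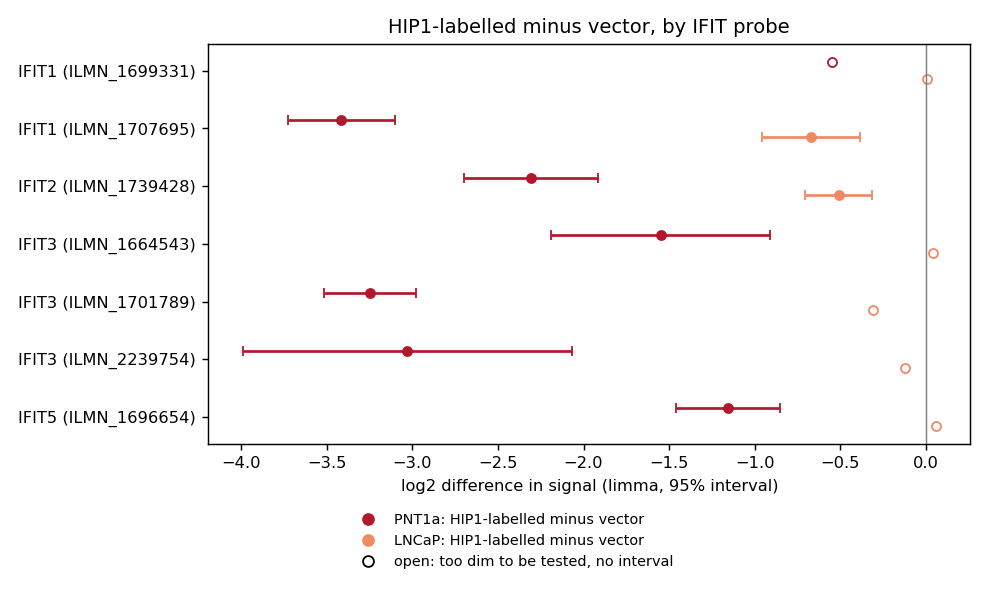
Log2 difference in signal, HIP1-labelled minus vector, for each IFIT probe in PNT1a (dark) and LNCaP (light), with 95% limma intervals; open circles were too dim to be tested. The PNT1a differences of tested probes run from -3.42 to -1.15, and the tested LNCaP differences are -0.67 and -0.51.

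In LNCaP the HIP1-labelled arrays were lower for both IFIT probes that could be tested, IFIT1 and IFIT2, and the differences were smaller than in PNT1a. Of 12013 probes tested in LNCaP, 7.33% were called, 4.18% lower and 3.15% higher. The groups overlapped for both IFIT probes, and 2.54% of all probes tested were lower with no overlap. IFIT1 by ILMN_1707695 was 7.34, 7.67 and 8.25 on HIP1-labelled arrays and 7.94, 8.41 and 8.68 on vector arrays. All arrays were above background, and 4 of the 6 HIP1-labelled arrays lay below all vector arrays. The difference was -0.67 (SE 0.14, 95% interval -0.95 to -0.39), or 1.59-fold lower (limma adjusted p = 0.00447, exact permutation p = 0.00649).

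IFIT2 was 7.73, 8.01 and 8.40 on HIP1-labelled arrays and 8.30, 8.56 and 8.69 on vector arrays of LNCaP. Here 5 of the 6 HIP1-labelled arrays lay below all vector arrays, the exception being HIP1-labelled array 4. The difference was -0.51 (SE 0.09, 95% interval -0.71 to -0.31), or 1.42-fold lower (limma adjusted p = 0.00214, exact permutation p = 0.00433). With a spread shared over all 24 arrays, the IFIT2 call was lost (limma adjusted p = 0.0864).

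The LNCaP arrays were cut into 2 sets by the same clustering, again a number chosen by hand. In the set of 9 arrays (5 HIP1-labelled, 4 vector) the differences were -0.83 for IFIT1 and -0.61 for IFIT2. In the set of 3 (HIP1-labelled array 4, vector arrays 3 and 4) they were -0.05 and -0.10. The smaller set holds 1 HIP1-labelled array and has no replicate check.

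IFIT3 lay near the background in LNCaP: by ILMN_1701789, 1 HIP1-labelled and 3 vector arrays were above it. The signal was 6.37, 6.62 and 7.12 on HIP1-labelled arrays and 6.77, 7.004 and 7.14 on vector arrays, and the groups overlapped. The difference of -0.31 was not tested with the other probes, and the probe alone gave an exact permutation p of 0.0346 (n = 6 each). No LNCaP array was above background for IFIT5, for ILMN_1664543 or for ILMN_1699331, so no fold is given there. ILMN_2239754 differed by -0.12 (exact permutation p = 0.208), with 1 HIP1-labelled and 2 vector arrays above background.

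The LNCaP difference minus the PNT1a difference was tested with all 24 arrays in a single limma fit. It was positive for all 6 tested IFIT probes, where 22% of 13934 probes were called in either direction and 10.5% were called higher. IFIT1 (ILMN_1707695) gave 2.75 (95% interval 2.29 to 3.20, limma adjusted p = 1.10e-09) and IFIT2 gave 1.80 (95% interval 1.36 to 2.24, limma adjusted p = 6.46e-07). Both genes were above background on every array of both lines, so for them the smaller LNCaP difference was measured on both sides. The size of the LNCaP differences depended on the background. With the mode subtracted on the linear scale they were -1.05 for IFIT1 and -0.72 for IFIT2, and the contrasts between lines were 2.60 and 1.79. The IFIT3 probes ILMN_1701789, ILMN_2239754 and ILMN_1664543 gave 2.94, 2.91 and 1.59, and IFIT5 gave 1.21, but these genes were near or below background in LNCaP, where a fall could hardly be measured. This test shares its arrays with the comparisons within each line.

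Without the HIP1 construct, LNCaP had much less IFIT signal than PNT1a. The PNT1a vector cells carried the vector stably and were kept in G418, and the LNCaP vector cells carried it transiently. The line, the way of transfection and the drug therefore cannot be told apart in this comparison. On vector arrays the LNCaP group was lower for all 5 probes tested, and none of the 5 overlapped, while 76.3% of 12817 probes were called, 36.1% lower, and 27.8% were lower with no overlap. IFIT1 averaged 8.41 ± 0.27 in LNCaP and 12.59 ± 0.29 in PNT1a (SD, n = 6 each), 18.1-fold lower in LNCaP (log2 difference -4.18, limma adjusted p = 5.25e-13). IFIT2 averaged 8.55 ± 0.15 in LNCaP and 11.44 ± 0.44 in PNT1a, 7.38-fold lower in LNCaP (limma adjusted p = 2.16e-10). IFIT3 by ILMN_1701789 averaged 6.98 ± 0.14 in LNCaP, where 3 of 6 arrays were above background, and 11.67 ± 0.27 in PNT1a, at least 24.9-fold lower in LNCaP (limma adjusted p = 9.82e-15). ILMN_2239754, with 2 LNCaP arrays above background, was at least 16.9-fold lower in LNCaP (limma adjusted p = 3.83e-08). In both cases LNCaP arrays below background were raised to that level. IFIT5 was at least 1.85-fold lower in LNCaP, where no array was above background (limma adjusted p = 3.19e-09), and IFIT3 by ILMN_1664543 at least 2.93-fold. The IFIT3 and IFIT5 probes passed the filter through their PNT1a arrays and had to differ, and the vector arrays are the same as in the comparisons above.

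IFIT1 and IFIT2 shared an order of group levels: LNCaP HIP1-labelled lowest, then LNCaP vector, PNT1a HIP1-labelled and PNT1a vector. For IFIT3 (ILMN_1701789) PNT1a HIP1-labelled and PNT1a vector followed in the same order, and the LNCaP groups, near background, were not ranked. The HIP1-labelled PNT1a arrays still lay above every LNCaP vector array for these 3 probes. LNCaP vector minus PNT1a HIP1-labelled was -0.76 for IFIT1, -0.58 for IFIT2 and -1.44 for IFIT3 (exact permutation p = 0.00216 each). The LNCaP groups are neighbours that overlap for all 3 probes. For IFIT5 the PNT1a HIP1-labelled group and both LNCaP groups averaged below background and were not ranked.

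Deviations of the IFIT genes within groups were compared next. Correlations are given over deviations from the group means of 12 arrays, and as a description, since arrays share scale and preparation. In PNT1a, IFIT1 and IFIT2 had r = 0.74, and 0.30 over 10 arrays without arrays 6, and IFIT1 and IFIT5 had 0.55 and 0.64. IFIT2 and IFIT3 (ILMN_1701789) had r = 0.62, and r = 0.86 over 10 arrays without arrays 6. With ILMN_1664543 and ILMN_2239754 for IFIT3, r was 0.54 and 0.44, but -0.73 and -0.17 without arrays 6. The sign thus depended on the IFIT3 probe. IFIT1 and IFIT3 (ILMN_1701789) had r = 0.07 and -0.11 without arrays 6. Between the IFIT3 probes ILMN_1664543 and ILMN_1701789 r was -0.21 and, without arrays 6, -0.80, so without arrays 6 these probes of the same gene tended to deviate in opposite ways. ILMN_1664543 and ILMN_2239754 deviated together, at 0.96 and, without arrays 6, 0.67. ILMN_1701789 and ILMN_2239754 had -0.19 and -0.14. In LNCaP, IFIT1 and IFIT2 had r = 0.90, IFIT1 and IFIT3 (ILMN_1701789) 0.87, and IFIT2 and IFIT3 by that probe 0.83, over 12 arrays. ILMN_1664543 and ILMN_2239754, near or below background there, had r = 0.19 and 0.25 with IFIT1, and 0.37 and -0.07 with IFIT2.

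**Figure D3:**
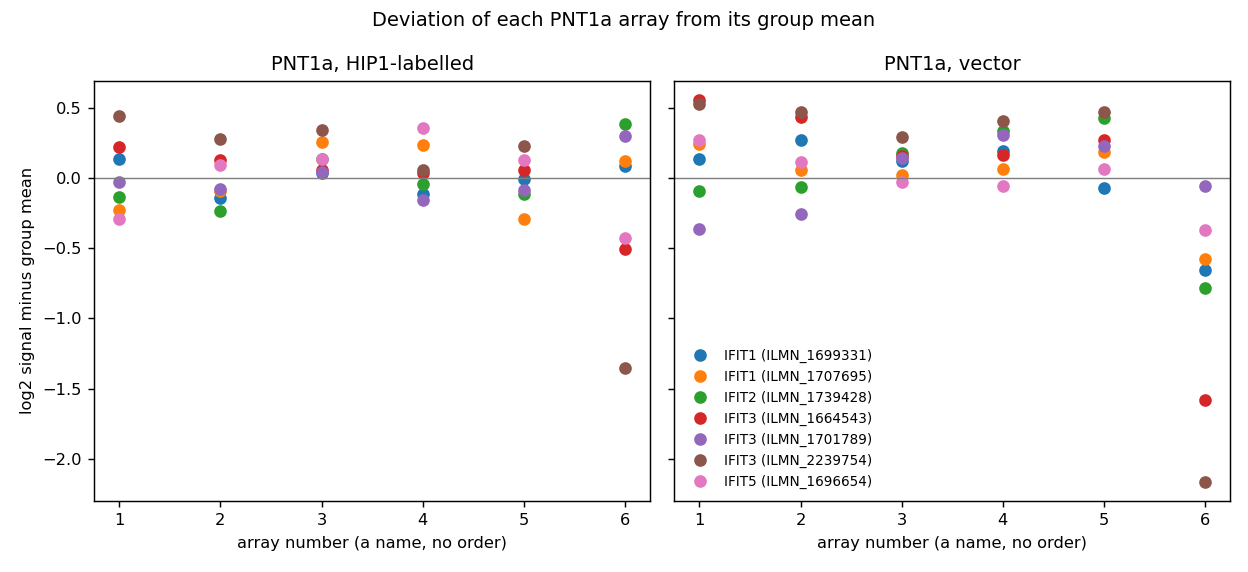
Log2 signal minus the group mean (vertical axis) for each IFIT probe on each PNT1a array (horizontal axis, array number as a name), HIP1-labelled arrays in the left panel and vector arrays in the right. Arrays 6 lie lowest for ILMN_1664543 and ILMN_2239754 in both panels, while IFIT2 is high on HIP1-labelled array 6 and low on vector array 6.

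Likeness to each IFIT gene was measured by Pearson r over all 24 arrays, and the 4 closest named genes are given. For IFIT1 they were SLC25A28 (r = 0.983), OAS3 (0.982), PARP9 (0.982) and OAS1 (0.978), and for IFIT2 OAS3 (0.976), SLC25A28 (0.976), OAS1 (0.974) and BEX1 (0.970). For IFIT3 they were OAS3 (0.995), OAS2 (0.991), MX2 (0.990) and FGFR3 (0.988). For IFIT5 they were HERC6 (0.966), STAU1 (0.962), STAMBPL1 (0.953) and ADAR (0.952). Arrays of all 4 groups enter these values, so they include the differences between groups, and OAS3 was among the 4 closest for IFIT1, IFIT2 and IFIT3. With group means subtracted in PNT1a (12 arrays), other genes came first: HPS5, HLX, CARD16 and RAP1GAP2 for IFIT1, GSTO1, GABARAPL1, CLIP3 and FGF2 for IFIT2, RNH1, CDC25B, SORL1 and PHLDA3 for IFIT3, and RAN, IFI6, SON and CTBP1 for IFIT5. Their r lay between 0.901 and 0.967, and between 0.803 and 0.938 over the 10 arrays without arrays 6.

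The rest of the interferon pathway was read from lists of genes arranged by role, each gene by its brightest probe. Over all probes tested, 13.4% were called lower and 14.2% higher in PNT1a, and 4.18% lower and 3.15% higher in LNCaP. None of the 9 interferon ligand genes reached the filter in either line. IFNB1, the type I interferon that most cells make first, was above background on 0 HIP1-labelled and 3 vector arrays of PNT1a, and averaged 6.43 on HIP1-labelled and 6.91 on vector arrays. Of 8 receptor and kinase genes tested in PNT1a, none passed in either direction (median 0.18, against 0.00 for all probes), and 1 of 7 passed in LNCaP, IFNGR2 at 0.26 (limma adjusted p = 0.0323). JAK1 and the receptor gene IFNLR1 were above background on no LNCaP array and were not tested there. JAK1 averaged 6.50 on HIP1-labelled and 6.58 on vector arrays of LNCaP, and 8.59 and 8.41 in PNT1a.

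Of 5 tested genes for ISGF3 subunits and IRF factors, 2 were lower in PNT1a and none was called in LNCaP. IRF9, the DNA-binding subunit of ISGF3, averaged 10.50 on HIP1-labelled and 11.98 on vector arrays of PNT1a (log2 difference -1.48, limma adjusted p = 4.46e-07). IRF7, which amplifies the interferon response, differed by -1.84 (limma adjusted p = 5.58e-07). In LNCaP, IRF9 differed by -0.14 (limma adjusted p = 0.290).

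Of 11 sensors and adaptors tested in PNT1a, 5 were lower and 1, the kinase TBK1, was higher by 0.35 (limma adjusted p = 0.0319). Among all probes tested there, 13.4% were lower and 14.2% higher. RIGI, a sensor of viral RNA, was at least 2.54-fold lower, with 0 HIP1-labelled and 6 vector arrays above background. CGAS, also among the 5, had 1 and 5 above it. Both passed the filter through their vector arrays and had to differ. The RNA-activated kinase EIF2AK2 differed by -1.43 and the sensor IFIH1 by -1.26 on the log2 scale. None of 6 passed in LNCaP. Neither of the 2 tested feedback regulators passed in PNT1a.

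Of 29 other interferon-stimulated effectors tested in PNT1a, 28 were lower and none higher, where 13.4% of all probes tested were lower. The median of the 29 was -1.39. RSAD2, above background on 1 HIP1-labelled and 6 vector arrays, passed the filter through its vector arrays and had to differ. Falls were largest in IFI44L (-4.64), OAS2 (-3.74) and MX2 (-3.38), where OAS2 makes the messenger that activates RNase L and MX2 blocks viral capsids. IFI44L was above background on only 3 HIP1-labelled arrays, so the background limits the size of its fall. EPSTI1 did not pass at -0.62 (limma adjusted p = 0.0547). In LNCaP 6 of 16 were lower and none higher, where 4.18% of all probes tested were lower. The median of the 16 was -0.13. The 6 were ISG15 (-0.85), IFITM1 (-0.58), IFI27 (-0.54), OASL (-0.53), IFI6 (-0.46) and OAS3 (-0.22). The IFIT1 and IFIT2 differences in LNCaP fell within the range of these 6. The lists were chosen with earlier results of these data known, and their counts are descriptions.

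Of 6 partners of IFIT proteins and cap-methylation genes tested in each line, 1 was higher in PNT1a, where 14.2% of all probes tested were higher. It was EIF3E, a subunit of the initiation factor that IFIT1 binds (0.37, limma adjusted p = 0.0146). In LNCaP 1 was lower, EIF3B (-0.22, limma adjusted p = 0.0317), where 4.18% of all probes tested were lower. With 1 call among 6, no direction is read for the list in either line.

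**Figure D4:**
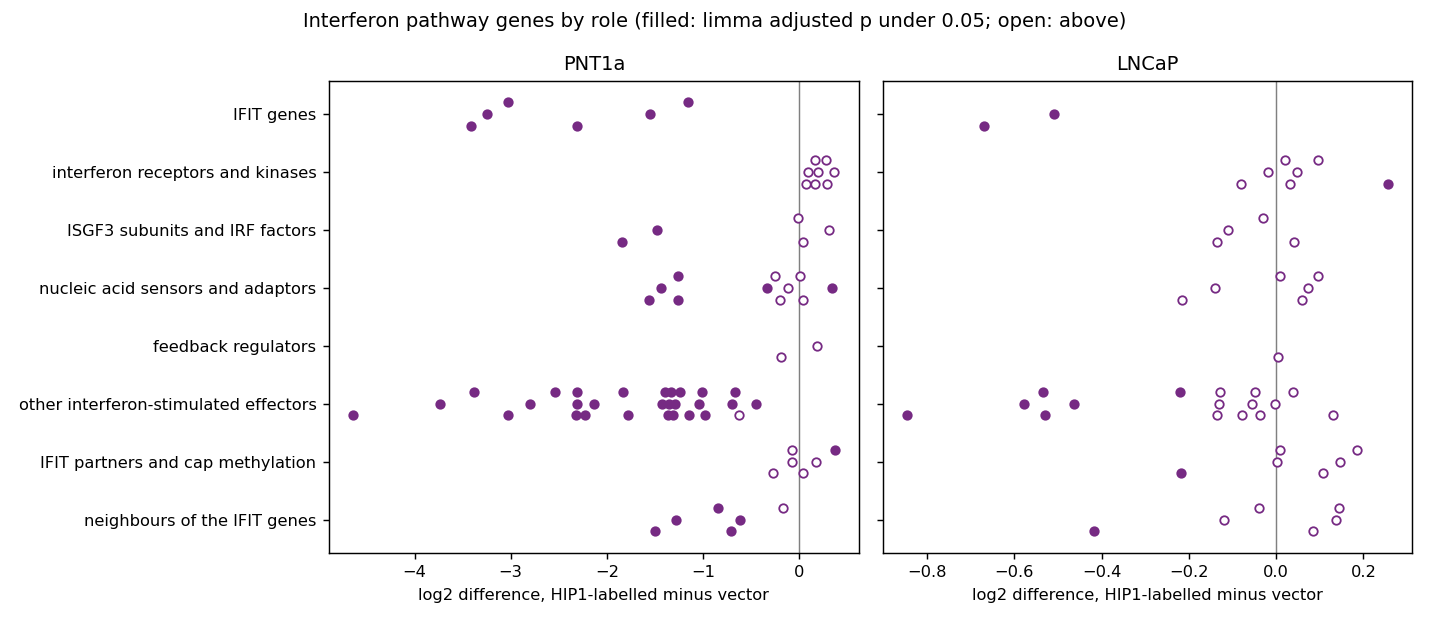
Log2 difference, HIP1-labelled minus vector, of each tested gene (IFIT: each tested probe), by role, for PNT1a (left) and LNCaP (right, on a narrower axis), with filled points past a limma adjusted p of 0.05. In PNT1a the IFIT probes and 28 of 29 other effectors lie below 0 and filled, while no receptor or kinase is filled.

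The IFIT genes lie next to each other on chromosome 10 in the order IFIT2, IFIT3, IFIT1B, IFIT1 and IFIT5. IFIT1B, a paralogue, was not well above background on any array of any group. Of the 11 listed neighbours, 6 were tested in PNT1a and 5 were lower, where 13.4% of all probes tested were lower. The 5 were STAMBPL1 (-1.50), ACTA2 (-1.28), KIF20B (-0.84), LIPA (-0.71, limma adjusted p = 0.0296) and PANK1 (-0.61). SLC16A12, the gene that follows IFIT5 in the list, differed by -0.16 (limma adjusted p = 0.793). Its SD was 0.66 on HIP1-labelled and 0.76 on vector arrays of PNT1a, against 0.12 and 0.11 for PANK1. A fall as large as that of PANK1 therefore could not be told from none for SLC16A12. In LNCaP 1 of 6 was lower, KIF20B at -0.42 (limma adjusted p = 0.00169), where 4.18% of all probes tested were lower. CH25H, FAS, IFIT1B, HTR7 and RPP30 were too dim to be tested in either line.

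**Figure D5:**
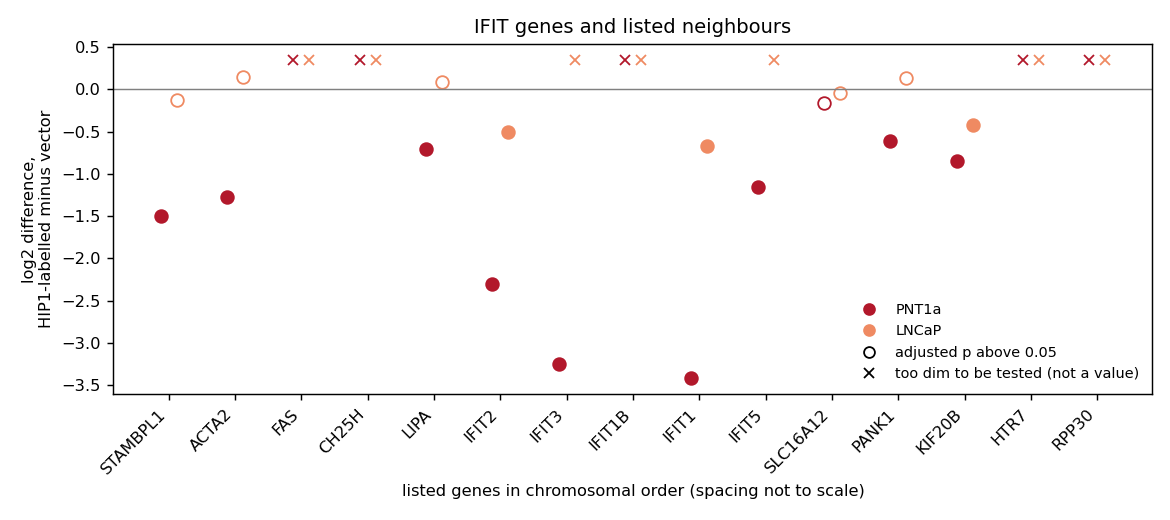
Log2 difference, HIP1-labelled minus vector, of the IFIT genes (brightest probe) and listed neighbours in the order in which they lie on chromosome 10, with spacing not to scale, for PNT1a (dark) and LNCaP (light). Crosses mark genes too dim to be tested and are not values. SLC16A12, whose PNT1a signal varied widely within groups, lies near 0 between IFIT5 and PANK1, which were lower in PNT1a.

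Some marker genes moved with the groups as well. Of 3 epithelial markers tested in PNT1a, KRT8 (-0.78, limma adjusted p = 0.0278) and EPCAM (-0.46, limma adjusted p = 0.00579) were lower on HIP1-labelled arrays, where 13.4% of all probes tested were lower. The summed signal of the list was 10.5 to 11.3 on HIP1-labelled and 11.1 to 11.7 on vector arrays (log2). In LNCaP 3 of 4 luminal markers were higher on HIP1-labelled arrays, where 3.15% of all probes tested were higher. The summed luminal signal was 12.3 to 12.7 on HIP1-labelled and 11.8 to 12.2 on vector arrays. The part of these shifts in the IFIT differences was not tested. Of 6 leukocyte markers, PTPRC, CD3E and LYZ were not above background on any array, nor were the 3 dendritic markers. The summed leukocyte signal was 10.7 to 11.6 on HIP1-labelled and 11.2 to 11.6 on vector arrays of PNT1a, carried by CD14, CD68 and HLA-DRA, of which CD68 was lower (-0.72, limma adjusted p = 0.0172).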

How the data were processed

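The deposited table holds log2 probe signals of 24 arrays, made from biotin-labelled cRNA of total RNA per the labels' protocols. No label or file header used here states the software or the normalization the authors applied, but the sorted columns of the log2 table differ by at most 0.0517, so the deposited values share a single distribution. A second deposited table holds raw intensity for 49895 entries under numeric names that no table links to probes: 6 of its 24 columns of values matched the labels, 18 were not used, and the 6 served only to compare scales (deposited minus raw log2 percentiles lay between -0.118 and 0.207).

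Log2 values were used as deposited. Probes above 6.97 on at least 6 of the 12 arrays fitted were tested with limma (version 3.58.1, R 4.3.3), with Benjamini-Hochberg adjustment over all probes tested, two-sided, and calls at 0.05. PNT1a and LNCaP were fitted separately because the spread is wider in PNT1a. The difference between lines used all 24 arrays, each probe of a line being eligible if tested in either line. This fit and that of the vector arrays pool the spread of both lines, so their intervals and p-values do not allow for the wider spread in PNT1a. Single probes and pairs of probes were tested by two-sided exact permutation over 924 splits (scipy 1.17.1). Every array had 12097 to 12105 probes above background and a median of 6.56, and the number of arrays limits the precision. A fold against a group partly below background is a bound, with arrays below 6.97 raised to it. The fit was tested on simulated data.

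Genes named are all IFIT probes, HIP1, for each IFIT gene the 4 genes most like its brightest probe by each of the 2 measures, up to 3 called genes with the largest change in PNT1a from each pathway list, IRF9, and all listed neighbours. Marker genes, IFNB1, JAK1, IFNLR1, CGAS, RSAD2, genes called in LNCaP and EPSTI1 were named after their values were seen. Members and lists were chosen with earlier results of these data known. Of the probes with a gene ID, 28059 matched RefSeq and 0 symbols changed. Sequences come from RefSeq (GRCh38.p14).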

Additional observations from a re-analysis of the deposited data

Results flagged for a closer look

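In 28 sets of 6 arrays (7 probes in 4 groups), 6 sets held an array far from the others by Dixon's ratio, which chance gives in about 1 in 20. In PNT1a all of these were arrays numbered 6. IFIT3 read 6.47 on HIP1-labelled and 6.94 on vector array 6 by ILMN_1664543, and 6.68 on HIP1-labelled and 8.90 on vector array 6 by ILMN_2239754. IFIT1 (ILMN_1707695) read 12.01 on vector array 6. By the remaining IFIT3 probe, ILMN_1701789, no array stood out in PNT1a, so a low reading on arrays 6 was not shared by all probes of the gene. In LNCaP, IFIT5 read 6.24 on HIP1-labelled array 4, below background as on every other array of that line.

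The difference between HIP1-labelled and vector arrays was not the same in LNCaP and PNT1a, by the limma test of the LNCaP effect minus the PNT1a effect. It was 2.75 for IFIT1 (ILMN_1707695), 1.80 for IFIT2, 1.59, 2.94 and 2.91 for IFIT3 (ILMN_1664543, ILMN_1701789 and ILMN_2239754) and 1.21 for IFIT5. The IFIT3 and IFIT5 probes were near or below background in LNCaP and passed the filter through PNT1a arrays, so for them a difference between lines could not be read from the LNCaP side, whereas IFIT1 and IFIT2 were above background on every array. PNT1a carried its construct stably in G418 and LNCaP transiently, so the line, the way of transfection and the drug cannot be told apart.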

How the results depend on the processing

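The counts of IFIT probes called kept within 1.5 times under each alternative, with these exceptions. Requiring signal above background on all arrays fitted left 3 of 6 in PNT1a, 2 of 6 for the difference between lines and 2 of 5 between vector arrays, since fewer IFIT probes were tested. With a spread shared over all 24 arrays, 1 IFIT probe was called in LNCaP in place of 2 (IFIT2 stayed at -0.51), and 3 effectors in place of 6. Leaving out each array in turn gave 6, 2, 6 and 5 calls every time. The PNT1a difference of IFIT1 (ILMN_1707695) then lay between -3.53 and -3.36, that of IFIT2 between -2.46 and -2.22 and that of ILMN_2239754 between -3.46 and -2.76. With background (the mode) subtracted on the linear scale and a floor of 16, which IFIT5 meets on HIP1-labelled arrays below the mode, IFIT1 minus IFIT3 turned to 0.0072 and IFIT2 minus IFIT5 to 0.091. With ILMN_1699331 for IFIT1, the differences from IFIT2, IFIT3 and IFIT5 turned to 1.76, 2.70 and 0.61. With ILMN_1664543 for IFIT3, IFIT2 minus IFIT3 turned to -0.76, IFIT1 minus IFIT3 passed at -1.87 and IFIT3 minus IFIT5 did not pass at -0.40 (exact permutation p = 0.165). With ILMN_2239754, IFIT2 minus IFIT3 did not pass at 0.72 (exact p = 0.152). The cause was not tested. Background subtraction and leaving out both arrays numbered 6, for the pairs and lists, were chosen after seeing the data.

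Over all probes, 3365 were called in PNT1a, against 5516 without arrays 6, 6050 with array weights, 5463 with the first principal component of deviations as covariate and 5814 with array clusters as block. In LNCaP 880 were called, against 235 with the shared spread, 549 without the filter and 1393 with the principal component. Between lines 3061 were called, against 5106 with array weights and 1919 above background on all arrays, and between vector arrays 9774 against 6489.

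Same-numbered arrays of a line did not all deviate together: their deviations correlated at -0.04 to 0.70 in PNT1a and -0.24 to 0.32 in LNCaP, and not every array correlated best with its own number. With the replicate number as a block, 6, 2, 6 and 5 IFIT probes were called, as without it, and 4440 probes in PNT1a and 868 in LNCaP. Recomputing from raw intensity was not run, since its entries are not paired with probes. Signal over background limits IFIT3 and IFIT5 in LNCaP and the dimmer IFIT1 and IFIT3 probes in both lines.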
